A study of Mus musculus with 7 samples.

Results

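The miR-99/100 and miR-125 families were followed through small RNA of the mouse hippocampus as 5 mature miRNAs, named mmu-miR-99a, mmu-miR-99b, mmu-miR-100, mmu-miR-125a-5p and mmu-miR-125b-5p in the files and written below without the prefix. They were taken by name from the 757 miRNA names of the deposited tables, and their mature sequences were found at 6 loci among 806 loci, which hold 756 different sequences. All 5 had at least 24192 reads in the non-trained libraries and passed the filter on low values.

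The 7 libraries, numbered 1 to 7, were each made from pooled hippocampi of C57BL/6 mice aged 3 to 5 months. NIPP1* mice carry a fragment of the nuclear inhibitor of protein phosphatase 1 (PP1), fused to EGFP and placed under a tetO promoter. A CaMKIIalpha promoter drives the rtTA2 activator, so that the fragment is made in forebrain neurons of animals fed doxycycline, whereas the hippocampus also holds glia, vessels and blood. Controls were littermates. Trained mice explored objects in an object recognition task (NOR), and non-trained mice were habituated to the arena without objects. The labels give library 1 to non-trained controls and library 2 to non-trained NIPP1* mice. They give libraries 3, 4 and 5 to trained controls and libraries 6 and 7 to trained NIPP1* mice. Both non-trained groups hold 1 library, and the labels do not state that libraries of a group come from separate pools, so that p-values measure the spread between these libraries only.

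A limit touches every comparison of the trained libraries. The deposited tables also give a mean of each group, and these means were rebuilt from the libraries to see which enter them. The table mean named trained wildtype was rebuilt from libraries 6 and 7 with an error of 0.0128% (root mean square over 319 miRNAs), against 15.6% for libraries 3, 4 and 5. Adding library 3 or 4 to libraries 6 and 7 left the error at 0.0127% and 0.0128%, and the added library took 0.00494% and 0.00172% of the weight, which was free in the fit. The mean named trained NIPP1 was rebuilt from libraries 3, 4 and 5 with an error of 0.0251%, against 18.2% for libraries 6 and 7. The labels and the tables thus name the trained genotypes the other way round. Groups below follow the labels, and values with the grouping of the tables are given beside them. The transgene is a protein-coding construct outside the reach of these reads, so no library could be checked for its genotype.

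A miRNA is cut from 1 arm of a hairpin and guides the Argonaute complex to messenger RNAs, mainly through its seed, bases 2 to 8 counted from the 5′ end. The miR-125 family is the vertebrate counterpart of lin-4 of the nematode, which controls the timing of development, and is abundant in brain. In neurons, miR-125a and miR-125b act on messenger RNAs of synaptic proteins together with the fragile X protein. The miR-99/100 family is related to the miR-10 family and is known for repressing Mtor, the kinase of the pathway that couples growth signals to translation. Hairpins of the 2 families lie in joint clusters with a let-7 hairpin between them.

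The mature sequences show how the members group, with the seed in capitals (sequences from RefSeq for GRCm38.p6, identical to the mm9 sequence at the deposited loci).
miR-99a: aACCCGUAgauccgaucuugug
miR-100: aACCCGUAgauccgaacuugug
miR-99b: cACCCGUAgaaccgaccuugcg
miR-125a-5p: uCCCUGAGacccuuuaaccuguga
miR-125b-5p: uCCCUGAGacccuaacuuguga
miR-351: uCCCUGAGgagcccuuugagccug
miR-10a: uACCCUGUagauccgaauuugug
The first 3 share the seed ACCCGUA, and miR-125a-5p and miR-125b-5p share CCCUGAG. With positions counted from 1 at the 5′ end, miR-100 differs from miR-99a by U16A alone, and miR-99b differs from miR-99a by A1C, U11A, U16C and U21C, none of them in the seed. The 2 miR-125 sequences have their first 13 bases in common. Among all sequences measured, miR-351 was the only other one with either seed, whereas miR-10a has the seed ACCCUGU.

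The loci fall into 3 clusters (build mm9, coordinates of the mature sequence, all on the plus strand). On chromosome 16, miR-99a (chr16:77599185-77599206) lies in an intron of Gm11146, a gene annotated on the minus strand, 656 bp from the let-7c-1 hairpin, and 46522 bp further on is a copy of miR-125b-5p (chr16:77646524-77646545) outside any annotated host gene. On chromosome 9, miR-100 (chr9:41339520-41339541) lies in an intron of the lincRNA D230004N17Rik, and the second copy of miR-125b-5p (chr9:41390023-41390044) lies in introns of D230004N17Rik and 2610203C20Rik, with a let-7a hairpin between them. On chromosome 17, the hairpins of miR-99b (chr17:17967158-17967179), let-7e and miR-125a fit into 700 bp. miR-99b has no annotated host there, and miR-125a-5p (chr17:17967781-17967804) lies in an exon of Ncrna00085. The other clusters span 47408 bp (chromosome 16) and 50578 bp (chromosome 9).

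Levels are given in RPM, reads per 1000000 miRNA reads, from the deposited percentages, over 7285261 to 10017729 miRNA reads per library. The 5 miRNAs took between 10.8% (library 1) and 13.6% (library 2) of all miRNA reads. The miR-125 seed accounted for 8.68% to 11.5% and the miR-99/100 seed for 1.97% to 2.34%.

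mmu-miR-125b-5p was among the most abundant miRNAs of the hippocampus, at rank 3 of all sequences in 6 libraries and rank 2 in library 5. It was measured at 81745 RPM in library 1, 105950 RPM in library 2, 87840, 104150 and 106850 RPM in libraries 3, 4 and 5, and 83435 and 87005 RPM in libraries 6 and 7. Libraries 2, 4 and 5 were close to each other and stood above the other 4. Its reads cannot be divided between its 2 identical copies. Each locus carries nearly the same percentage, and the level is the mean of both, since the deposited percentages sum to 170% to 174% over loci and to 100% with identical sequences averaged. Adding the copies instead would give a level 2 times as high, so that values set against other miRNAs rest on this reading. The deposited tables hold 726786 and 855038 reads of it for libraries 1 and 2, close to the 726777 and 855293 from the averages.

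mmu-miR-125a-5p, which shares its seed, ranked 27 to 35. Its levels were 5039 RPM in library 1, 6531 RPM in library 2, 5985, 7536 and 7732 RPM in libraries 3, 4 and 5, and 5373 and 4845 RPM in libraries 6 and 7. All 3 trained control libraries stood above both trained NIPP1* libraries. It varied most among the 5, with a coefficient of variation (CV) over the 7 libraries of 18.9%, and 77.7% of the 319 miRNAs averaging 100 reads or more had a smaller SD of log2 level.

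mmu-miR-99a was the most abundant of its seed, at ranks 12 to 18. It was measured at 13560 RPM in library 1, 14520 RPM in library 2, 13650, 11910 and 12910 RPM in libraries 3, 4 and 5, and 12790 and 14590 RPM in libraries 6 and 7. The groups overlapped, and the CV was 7.19%. It made up 60.4% to 64.6% of the reads of the miR-99/100 family.

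mmu-miR-100, which differs from miR-99a by a single base, held the steadiest level of the 5. Its values were 4928 RPM in library 1, 5156 RPM in library 2, 4704, 4588 and 4937 RPM in libraries 3, 4 and 5, and 5041 and 5019 RPM in libraries 6 and 7. The CV was 4.05%, and 1.57% of the 319 miRNAs with at least 100 reads had a smaller SD of log2 level. The median CV was 13.1% over those miRNAs and 10.5% over the 50 most abundant.

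mmu-miR-99b was the least abundant, at ranks 39 to 47. It had 2721 RPM in library 1, 3761 RPM in library 2, 3287, 3231 and 3395 RPM in libraries 3, 4 and 5, and 2885 and 2962 RPM in libraries 6 and 7. Here too the trained control libraries stood above both trained NIPP1* libraries, with library 2 highest and library 1 lowest (CV 11.1%). The order of mean levels was miR-125b-5p, miR-99a, miR-125a-5p, miR-100 and miR-99b, and only the ranges of miR-125a-5p and miR-100 overlapped, with miR-100 higher in library 7. Counting error was below 0.7% in every library for each of them and covers reads, not molecules, since amplified reads are not independent.

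**Figure D1:**
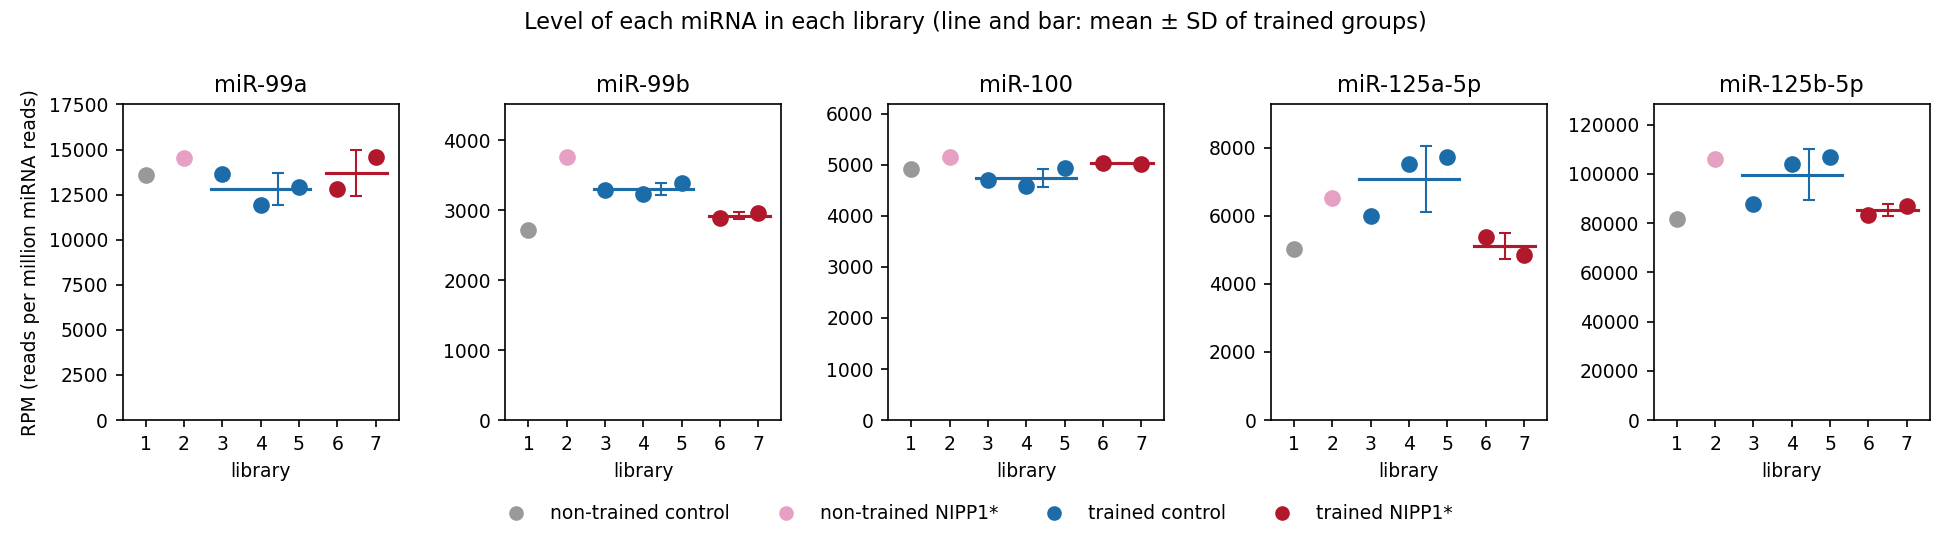
Level of each of the 5 miRNAs (RPM, axis from 0) in libraries 1 to 7, coloured by labelled group, with a line at the mean and a bar of 1 SD for the trained groups (n = 3 controls and n = 2 NIPP1*). miR-99b, miR-125a-5p and miR-125b-5p are higher in libraries 2 to 5 than in libraries 1, 6 and 7, while miR-99a and miR-100 overlap between these libraries.

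The main comparison asked whether inhibition of nuclear PP1 goes with other miRNA levels in trained animals. By the labels, miR-125a-5p was at 5109 ± 373 RPM in trained NIPP1* (SD, n = 2) and 7084 ± 957 RPM in trained controls (SD, n = 3), and miR-125b-5p at 85220 ± 2524 RPM and 99613 ± 10285 RPM. miR-99b was at 2924 ± 54.4 RPM in trained NIPP1* and 3304 ± 83.4 RPM in trained controls. miR-99a (13690 ± 1273 against 12823 ± 873 RPM) and miR-100 (5030 ± 15.6 against 4743 ± 178 RPM) were slightly higher in trained NIPP1*, in miR-100 without overlap. None of the 5 passed the test. The log2 difference, NIPP1* minus control, on the log2(RPM + 0.5) scale was −0.46 ± 0.14 (SE) for miR-125a-5p, with a 95% interval of −0.79 to −0.14 and a limma adjusted p of 0.639. It was −0.22 ± 0.10 for miR-125b-5p (limma adjusted p = 0.639) and −0.18 ± 0.10 for miR-99b (limma adjusted p = 0.659). For miR-99a the interval was −0.16 to 0.34, and for miR-100 it was −0.14 to 0.31. Library 3 weighed on these values. Without it the log2 difference was −0.58 for miR-125a-5p and −0.31 for miR-125b-5p, with a limma adjusted p of 0.0654 and 0.0840, whereas leaving out any other library gave 0.636 to 0.994 for both.

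The trained control libraries stood above both trained NIPP1* libraries in 3 of the 5 members, a pattern found in 7.77% of the 476 miRNAs tested, and the 2 groups did not overlap in 4 of the 5, against 26.5% of those miRNAs. Fold changes above 0 made up 56.3% of all miRNAs and 2 of the 5 members. The share of all miRNAs was 52.5% with TMM factors and 47.1% with DESeq2 size factors. limma called 0 of 476 miRNAs (0%) at an adjusted p under 0.05 in this and in the following 4 comparisons, with 21 to 37 miRNAs at an unadjusted p under 0.05. edgeR on recovered reads called 0 in each, and DESeq2 called 1 or 2, none of them a member. With the trained libraries grouped as in the deposited tables each sign turns, and the log2 difference of miR-125a-5p was 0.46, with a limma adjusted p of 0.639.

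Training was then compared within each genotype against the single non-trained library. In controls, every trained library exceeded the non-trained library for miR-125a-5p, miR-125b-5p and miR-99b, by log2 differences of 0.48 ± 0.18, 0.28 ± 0.13 and 0.28 ± 0.12 (SE), while miR-99a and miR-100 were at −0.08 ± 0.13 and −0.06 ± 0.12. Every trained control library exceeded the non-trained one in 18.3% of the 476 miRNAs. In NIPP1* mice all 5 had a log2 difference below 0, with DESeq2 size factors 4 of them without miR-100, of −0.36 ± 0.19 for miR-125a-5p, −0.31 ± 0.13 for miR-125b-5p, −0.36 ± 0.13 for miR-99b, −0.09 ± 0.14 for miR-99a and −0.04 ± 0.13 for miR-100. Differences above 0 made up 40.5% of the 476 miRNAs in controls and 43.9% in NIPP1* mice, against 3 and 0 of the 5 members. The shares of the 476 were 46.2% and 49.4% with TMM factors, and 49.4% and 51.9% with DESeq2 size factors. No member passed the test, with limma adjusted p of 0.666 for the 3 higher miRNAs in controls and 0.962 or more in NIPP1* mice. In controls the signs of miR-99a and miR-100 turned with DESeq2 size factors. With the grouping of the deposited tables, training in controls gave log2 differences of 0.02 for miR-125a-5p, 0.06 for miR-125b-5p, 0.10 for miR-99b, 0.01 for miR-99a and 0.03 for miR-100 (limma adjusted p = 0.994 for each). In NIPP1* mice that grouping gave 0.11, −0.09, −0.19, −0.18 and −0.12 in the same order (limma adjusted p = 0.958 for each). These 2 comparisons and that of the trained genotypes share libraries, so their values are not independent.

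The training effect of NIPP1* mice minus that of controls was −0.84 ± 0.26 for miR-125a-5p, −0.59 ± 0.18 for miR-125b-5p and −0.64 ± 0.18 for miR-99b (log2, SE). The 95% intervals were −1.45 to −0.23, −1.03 to −0.16 and −1.07 to −0.21, and the limma adjusted p over all miRNAs was 0.577 for each. For miR-99a it was −0.0052 ± 0.19, with a 95% interval of −0.46 to 0.45, and for miR-100 it was 0.02 ± 0.17, with −0.39 to 0.43 and a sign that turned with DESeq2 size factors. In those 3 members every trained control library was above the non-trained control and every trained NIPP1* library below the non-trained NIPP1* library, a pattern of 8.4% of the 476 miRNAs, and 21.8% showed it in either direction. The difference was below 0 in 4 of the 5 members, although that of miR-99a ranged from −0.10 to 0.090 with each library left out. Of all miRNAs 52.9% were above 0, 50.4% with TMM factors and 48.9% with DESeq2 size factors. With the grouping of the tables the difference was 0.09 ± 0.26 for miR-125a-5p, −0.15 ± 0.18 for miR-125b-5p and −0.29 ± 0.18 for miR-99b.

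**Figure D2:**
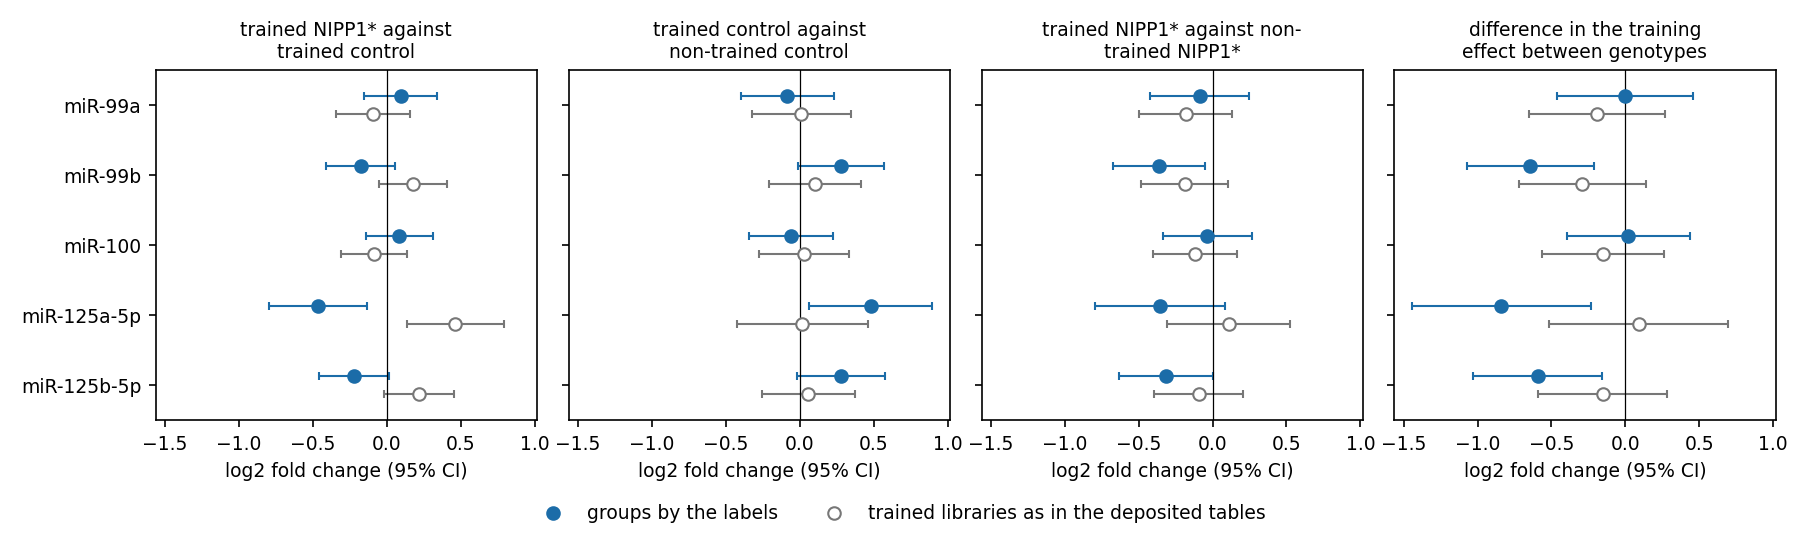
Log2 fold change (x axis, 95% limma interval) of the 5 miRNAs in 4 comparisons, by the labels (filled) and with the trained libraries grouped as in the deposited tables (open). By the labels the intervals of miR-99b, miR-125a-5p and miR-125b-5p lie below 0 in the difference of the training effect, and with the other grouping each includes 0.

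Over both genotypes, the 5 trained and the 2 non-trained libraries differed by less than 1 SE for each member. The log2 difference was 0.11 ± 0.20 for miR-125a-5p, 0.0047 ± 0.13 for miR-125b-5p, −0.02 ± 0.14 for miR-99b, −0.09 ± 0.10 for miR-99a and −0.05 ± 0.09 for miR-100 (SE, the signs of miR-99b and miR-100 turning with DESeq2 size factors). The limma adjusted p was 0.892 or more. Differences above 0 made up 39.3% of all miRNAs, 47.7% with TMM factors and 52.3% with DESeq2 size factors. This comparison does not use the genotype of the trained libraries, and its 95% interval for miR-125b-5p was −0.30 to 0.31. Leaving out library 1 or library 2 moved miR-99b between −0.26 and 0.21 and miR-125a-5p between −0.08 and 0.30.

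Between the 2 non-trained libraries, the NIPP1* library held more of all 5. The log2 ratio was 0.47 for miR-99b (95% interval 0.44 to 0.49), 0.37 for miR-125a-5p (0.36 to 0.39) and 0.37 for miR-125b-5p (0.37 to 0.38), but 0.10 for miR-99a and 0.07 for miR-100. These exact binomial intervals cover counting error only, and neither library has a replicate. A limma contrast of the 2 libraries in the model of 4 groups, whose spread comes from the trained libraries, was added after the data were seen. Its 95% intervals were 0.11 to 0.83 for miR-99b, −0.14 to 0.88 for miR-125a-5p, 0.01 to 0.74 for miR-125b-5p, −0.29 to 0.48 for miR-99a and −0.28 to 0.41 for miR-100, and the limma adjusted p was 0.998 for each. limma called 0 of 476 (0%), with 14 at an unadjusted p under 0.05 and 52.1% above 0, and edgeR and DESeq2 on recovered reads called 0. A ratio larger in size was found in 7.14% of the 322 miRNAs with at least 100 reads for miR-99b, and in 12.4% for miR-125a-5p. Ratios above 0 made up 53.1% of these miRNAs, and 3 of them (0.932%), none a member, were past a log2 ratio of 1 in size. This comparison is independent of the grouping of the trained libraries.

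Set side by side, the 7 libraries fell into the same parts for 3 members. Every one of libraries 2, 3, 4 and 5 was above every one of libraries 1, 6 and 7 for miR-99b, miR-125a-5p and miR-125b-5p, and neither miR-99a nor miR-100 showed this. The means of the former and the latter libraries were 6946 ± 829 and 5086 ± 267 RPM for miR-125a-5p, 101198 ± 8975 and 84062 ± 2685 RPM for miR-125b-5p, and 3419 ± 238 and 2856 ± 123 RPM for miR-99b (SD, n = 4 and n = 3). The pattern was noticed in these values and holds for 22 of 476 miRNAs (4.62%). It includes the orders given above for these members, of trained controls above trained NIPP1* libraries and of training in each genotype. Those orders and their shares are thus no separate observations. By the grouping of the deposited tables, libraries 2, 3, 4 and 5 are the NIPP1* libraries and 1, 6 and 7 the controls. By the labels the same libraries mix both genotypes and both training states.

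A fit of genotype over all 7 libraries was added after this pattern was seen, with either grouping. With the grouping of the tables it sets libraries 2, 3, 4 and 5 against 1, 6 and 7, the same split, so that its values restate the pattern and are no separate evidence of it. By the labels, the log2 difference between NIPP1* and control libraries was −0.22 ± 0.17 for miR-125a-5p, −0.05 ± 0.12 for miR-125b-5p, 0.01 ± 0.13 for miR-99b, 0.10 ± 0.09 for miR-99a and 0.08 ± 0.08 for miR-100 (SE), with a limma adjusted p of 0.979 or more. limma called 0 of 476 (0%), with 13 at an unadjusted p under 0.05, and 60.1% of all miRNAs were above 0. With the grouping of the tables it was 0.44 ± 0.10 for miR-125a-5p, 0.26 ± 0.08 for miR-125b-5p and 0.26 ± 0.09 for miR-99b (SE), with −0.04 ± 0.09 for miR-99a and −0.05 ± 0.08 for miR-100. None passed, with limma adjusted p of 0.227, 0.227 and 0.291 for the former 3. In that fit 45.2% of all miRNAs were above 0 and 2 (0.42%) were called, miR-219-5p and miR-344d-3*, which are no members and were named after their values were seen. The calls numbered 8 without library 3, 0 without library 6 and 1 without library 1, 2, 4 or 7. Without library 3, miR-125a-5p and miR-125b-5p passed (limma adjusted p 0.0398 and 0.0356), whereas leaving out any other library gave an adjusted p between 0.328 and 0.531 for both.

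**Figure D3:**
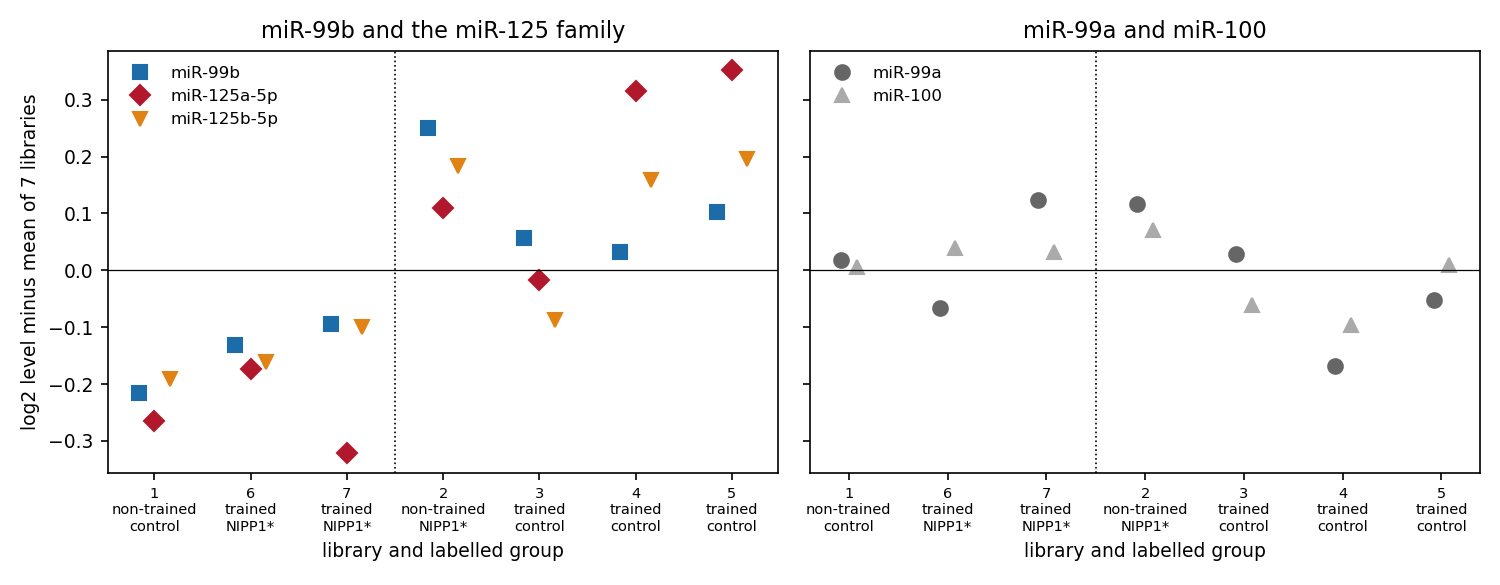
Log2 level of each miRNA minus its mean over the 7 libraries (y axis), with libraries 1, 6 and 7 left of the dotted line and 2, 3, 4 and 5 right of it, named by labelled group. miR-99b, miR-125a-5p and miR-125b-5p do not overlap across the line, and the values of miR-99a and miR-100 overlap across it.

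Markers of other cells were set beside this pattern. The 2 oligodendrocyte miRNAs, miR-338-3p and miR-219-5p, summed to 2766 to 3845 RPM in libraries 2, 3, 4 and 5. In libraries 1, 6 and 7 they summed to 4123 to 4808 RPM, without overlap and in the direction opposite to the 3 members. Nearly all of each sum was miR-338-3p, since miR-219-5p was at 26.7 RPM or less, though each did not overlap alone. miR-219-3p and miR-338-5p, which were not listed, did overlap. They were at 371.2 to 511.7 and 34.02 to 41.66 RPM in libraries 2, 3, 4 and 5. In libraries 1, 6 and 7 they were at 507.9 to 634.3 and 39.13 to 50.92 RPM. The summed levels of the other lists overlapped between these libraries, at 83119 to 92958 RPM for 6 neuronal miRNAs, 14791 to 18452 RPM for 4 of vessels, 1158 to 1654 RPM for 6 of leukocytes and microglia, 400.4 to 1154 RPM for 2 of the choroid plexus and 447 to 659 RPM for 6 of other organs. The 2 red blood cell miRNAs summed to 61.9 to 126 RPM in libraries 2, 3, 4 and 5 and 116 to 251 RPM in libraries 1, 6 and 7, with means of 83.7 and 166 RPM. Sums that overlapped held single miRNAs that did not. Among the neuronal miRNAs, miR-128, the most abundant of them, was at 60475 to 71940 RPM in libraries 2, 3, 4 and 5 and 53960 to 58385 RPM in libraries 1, 6 and 7, in the direction of the 3 members. miR-124 went the other way (3637 to 4054 and 4085 to 5135 RPM), and the other 4 overlapped. Of the leukocyte list, miR-223 was at 50.8 to 54.6 and 44.2 to 48.3 RPM, and of the other organs, miR-1, a muscle miRNA, was at 407 to 562 and 565 to 607 RPM. Libraries 1, 6 and 7 stood above the others in 7.77% of the 476 miRNAs, and the reverse share is the 4.62% given above. Over the 7 libraries Pearson's r with miR-125a-5p was −0.91 for the red blood cell sum and −0.88 for the oligodendrocyte sum, as a description over shared libraries and totals. The part of these cells in the values of the members was not tested. In pooled tissue, fewer cells of a type and less RNA per cell cannot be told apart.

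Likeness among the members over the libraries followed neither the cluster nor the seed alone. Over the 7 libraries Pearson's r of the log2 levels was 0.90 between miR-125a-5p (chromosome 17) and miR-125b-5p (chromosomes 9 and 16), 0.85 between miR-99b and miR-125b-5p, and 0.71 between miR-99b and miR-125a-5p. miR-99a and miR-100 had r = 0.65 with each other, and between −0.55 and 0.13 with the other 3. All pairs share the same libraries and totals, and the median r over pairs of the 319 miRNAs was 0.05. The let-7 miRNA of a cluster differed from case to case, since let-7e had r = 0.90 with miR-125a-5p but 0.35 with miR-99b, between which it lies, and let-7c had r = −0.74 with miR-99a. Both let-7a and let-7c also come from hairpins outside these clusters.

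Among 314 other miRNAs with at least 100 reads, those most like miR-125a-5p in pattern were miR-29b-1* (r = 0.96), miR-328 (0.94) and miR-129-5p (0.93). For miR-125b-5p they were miR-99b* (0.92), miR-128 (0.89) and miR-129-5p (0.89), and for miR-99b miR-223 (0.92), miR-329 (0.91) and miR-1843-3p (0.91). miR-99a was most like miR-186* (0.95), miR-186 (0.91) and miR-151-5p (0.90), and miR-100 most like miR-181a-1* (0.94), miR-350* (0.85) and miR-140 (0.80). Over only 7 libraries these values are a description.

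Ratios within a library need no scaling between libraries. Those of miR-99a and miR-100 to miR-99b restate the split of miR-99b, since both vary little, and the ratio to miR-99b was higher in libraries 1, 6 and 7 than in the others for 34.9% of the other 475 miRNAs tested. The ratio of miR-99a to miR-99b was 3.69 to 4.15 in libraries 2, 3, 4 and 5 and 4.43 to 4.98 in libraries 1, 6 and 7, and that of miR-100 to miR-99b was 1.37 to 1.45 and 1.69 to 1.81. The ratio of miR-125a-5p to miR-99b overlapped between these libraries, at 1.74 to 2.33 in libraries 2, 3, 4 and 5 and 1.64 to 1.86 in libraries 1, 6 and 7. miR-125b-5p exceeded miR-125a-5p by 13.8-fold to 18.0-fold, lowest in libraries 4 and 5 and highest in library 7. In both non-trained libraries this ratio was 16.2. The ratio of miR-99a to miR-100 stayed between 2.54 and 2.91.

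The opposite arms of the hairpins were rare. The 5′ arm exceeded the 3′ arm by 339-fold to 403-fold for miR-99a, 43.5-fold to 52.1-fold for miR-99b and 175-fold to 249-fold for miR-125a. miR-100* was seen with 6.57 reads a library on average (0.50 to 0.96 RPM), so that its ratio is not given. The 3′ arms of the miR-125b copies differ in sequence and can be told apart, unlike the 5′ arms. They are shown with their seeds in capitals.
miR-125b-1-3p: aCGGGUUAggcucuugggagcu
miR-125b-2-3p: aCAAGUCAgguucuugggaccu
miR-125b-2-3p (chromosome 16) was at 239 to 293 RPM and miR-125b-1-3p (chromosome 9) at 46.9 to 66.3 RPM, a ratio of 3.89 to 5.65, and miR-125b-5p exceeded both together by 244-fold to 321-fold. A ratio of 3′ arms is not a ratio of the 5′ arms, whose division between the copies was not measured.

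**Figure D4:**
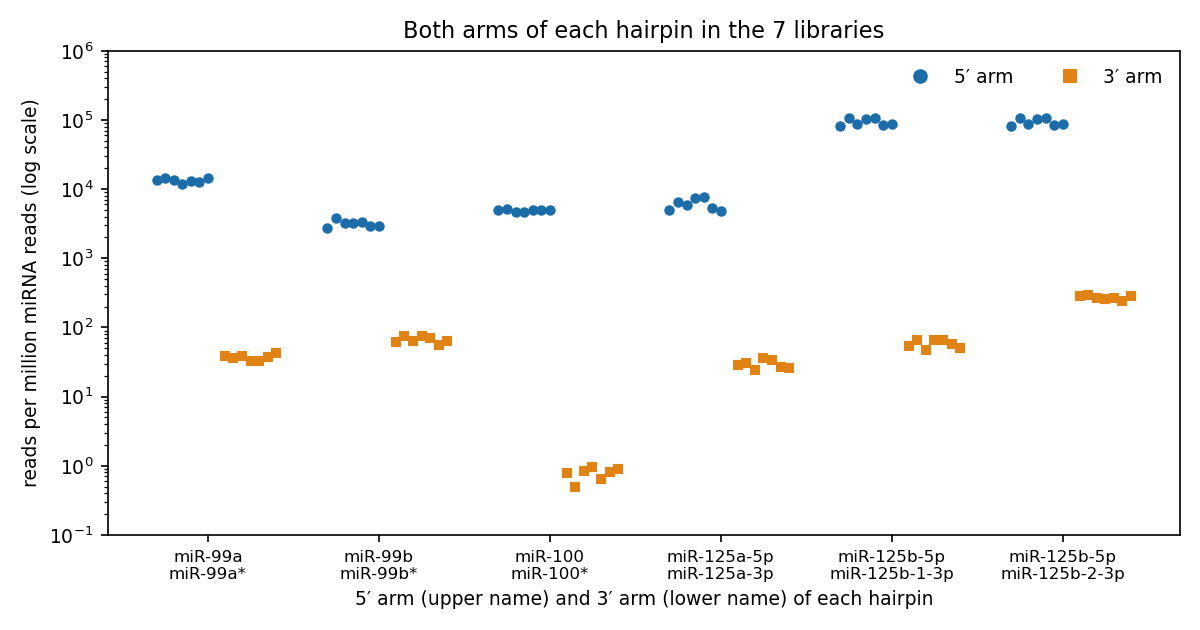
RPM (log scale) of the 5′ arm (circles) and the 3′ arm (squares) of each hairpin, with 1 point per library from library 1 on the left to library 7 on the right, and miR-125b-5p drawn for both of its hairpins. Each 5′ arm is at 2721 RPM or more, each 3′ arm at 293 RPM or less, and miR-100* is at or below 0.96 RPM.

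The 3′ arms gave a less precise view of the same comparisons. miR-99b* correlated with miR-99b with r = 0.77, miR-125a-3p with miR-125a-5p with r = 0.79, and miR-99a* with miR-99a with r = 0.72 over the 7 libraries. miR-125b-1-3p had r = 0.79 with miR-125b-5p and miR-125b-2-3p had r = 0.21. miR-100* had r = −0.66 with miR-100, over the few reads given above. The difference in the training effect was −0.50 ± 0.30 for miR-99b*, −0.36 ± 0.40 for miR-125a-3p, −0.37 ± 0.38 for miR-125b-1-3p, −0.07 ± 0.26 for miR-125b-2-3p and 0.31 ± 0.31 for miR-99a* (log2, SE), and none passed the test (limma adjusted p of 0.735 or more).

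Relatives outside the families were at low levels or did not pass. miR-351, with the miR-125 seed, had 32.4 to 44.3 RPM, and its log2 difference between trained genotypes was −0.05 ± 0.19 (SE). miR-10a and miR-10b, relatives of miR-99/100 from the Hox clusters, had 17.5 to 26.1 RPM and 9.10 to 22.4 RPM. Of the let-7 miRNAs of the clusters, let-7e was at 8006 to 11920 RPM, let-7c at 44775 to 66190 RPM and let-7a at 35055 to 44850 RPM. The log2 difference between trained and non-trained libraries was 0.32 ± 0.11 for let-7c (limma adjusted p = 0.816), with all 5 trained libraries above both non-trained libraries, as in 3.36% of the 476 miRNAs. Of these and the 3′ arms, none that was tested passed in any of the 5 comparisons, and miR-100* and let-7a-2* were below the filter on reads.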

How the data were processed

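Small RNA libraries of pooled hippocampi were made by the authors, with CASAVA 1.7.0, Bowtie and bedtools in the submitters' processing notes and build mm9. For each mature locus the authors deposited its percent of all miRNA reads. Their comparison tables hold signal as reads divided by size factors, deposited as means per group, together with fold changes, p-values and residual variances that were not used, like 2 columns of values per library. Here percentages were multiplied to RPM and identical mature sequences averaged, which brought each library's sum to 100%. The methods speak of uniquely mapping reads, yet each identical copy of miR-125b-5p carries nearly the same value, and how such reads were assigned is not given in the sources used here. Low values step by whole reads, which gave back the counts: 100% of values of up to 100 reads lay within 0.1 reads of a whole number in each library. Table names were joined to sequences for 686 of 706 names with a read.

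limma (3.58.1, R 4.3.3, trend) was fitted on log2(RPM + 0.5), which understates changes of low miRNAs, over 476 miRNAs averaging 10 reads or more, and p-values were adjusted by Benjamini and Hochberg (threshold 0.05). The model of 4 groups has 3 residual degrees of freedom, so the trained libraries give the spread of the non-trained ones. Alternatives were pseudocounts of 0.1 and 1, other filters, TMM and DESeq2 size factors, edgeR 4.0.16 and DESeq2 1.42.0 on recovered reads, each library left out, a contrast of the non-trained libraries and the grouping of the authors' tables. Named were the members, the opposite arms, the let-7 of their clusters, miRNAs with a member's seed, miR-10, and for each member the 3 of highest r. The members, lists and rules were chosen with earlier results of these data known. Scripts were tested on simulated data. Descriptions and plots used Python 3.11.15, pandas 2.3.3, numpy 2.4.6 and matplotlib 3.10.9. Annotation came from GENCODE on NCBIM37.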

Additional observations from a re-analysis of the deposited data

Results flagged for a closer look

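The effect of training ran in opposite directions in the 2 genotypes, as labelled, for 3 of the 5 miRNAs, every trained control library lying above the non-trained control and every trained NIPP1* library below the non-trained NIPP1* library, a pattern of 8.4% of the 476 miRNAs (21.8% in either direction). Each effect rests on a single non-trained library. The pattern follows from the split of libraries 2, 3, 4 and 5 against 1, 6 and 7 and is no separate observation. The difference of the effects (log2, NIPP1* minus control) was −0.84 for miR-125a-5p, −0.64 for miR-99b and −0.59 for miR-125b-5p. A test of the difference itself gave a limma adjusted p of 0.577 for each, and with the grouping of the deposited tables the values were 0.09, −0.29 and −0.15. Of the 5 miRNAs over the 5 trained libraries, none had a library set apart from the others by Dixon's criterion (the largest gap was 0.351 of the range). That criterion flags only a gap above 0.71 of the range over both genotypes together. It does not cover libraries 1 and 2 and does not speak to the weight of library 3.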

How the results depend on the processing

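Many alternatives could hardly change the direction of a member, so the first count below is no measure of stability. Leaving out a trained library does not move the difference between the non-trained libraries. Pseudocounts and read filters barely move levels this high. Of 520 values of the 5 members under the alternatives, 469 kept their direction and side of the threshold, 49 changed sign and 2 passed the threshold (miR-125a-5p and miR-125b-5p without library 3, in the genotype fit that restates an observed split). In the 5 comparisons set out at the start, no alternative brought a member past it, nor did any in the added contrast of the non-trained libraries (limma adjusted p from 0.746 to 0.999). With the grouping of the deposited tables, trained NIPP1* minus trained control was −0.093 for miR-99a, 0.18 for miR-99b, −0.085 for miR-100, 0.46 for miR-125a-5p and 0.22 for miR-125b-5p, and training in controls was 0.011 for miR-99a and 0.030 for miR-100. That grouping gave 0.11 for miR-125a-5p in training in NIPP1* mice, and −0.15 for miR-100 and 0.090 for miR-125a-5p in the difference of the effects. In the genotype over all libraries it gave 2 calls in place of 0, −0.045 for miR-99a, −0.045 for miR-100, 0.44 for miR-125a-5p and 0.26 for miR-125b-5p. Apart from those with a library left out, given below, the other changes of sign were in values near 0. TMM factors gave 0.0021 for miR-100 in training in controls, −0.010 for miR-100 in the difference of the effects and 0.021 for miR-99b in trained against non-trained libraries. DESeq2 size factors gave 0.0064 for miR-99a and 0.033 for miR-100 in training in controls, 0.0051 for miR-100 in training in NIPP1* mice, −0.028 for miR-100 in the difference, and 0.046 for miR-99b and 0.016 for miR-100 in trained against non-trained libraries. The DESeq2 test gave 0.014, 0.041, 0.0042, −0.036, 0.035 and 0.019 for the same values. It called miR-344d-3* (1 miRNA) between trained genotypes, miR-129-2-3p (1) for training in controls and (1) for training over both genotypes, miR-136 and miR-146a (2) for training in NIPP1* mice, and miR-136 and miR-344d-3* (2) for the difference. The mean of both genotypes gave −0.017 for miR-125b-5p. With a filter of 10 reads, 14 miRNAs were past a log2 ratio of 1 between the non-trained libraries in place of 3 (miR-182, miR-183 and miR-34a).

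With each library left out, where a lone library is assumed to vary like the other groups, limma called 0 in the 5 comparisons and in the added contrast. For miR-125a-5p and miR-125b-5p, the adjusted p was lowest without library 3, at 0.072 for training in controls and 0.088 in the difference of the effects, against up to 0.908 and 0.989 without another library. miR-99a ranged from −0.0015 to 0.19 between trained genotypes, from −0.18 to 0.0069 for training in NIPP1* mice and from −0.10 to 0.090 in the difference, where miR-100 ranged from −0.0035 to 0.049. For training in controls miR-99a ranged from −0.13 to −0.031 and miR-100 from −0.085 to −0.032. In trained against non-trained libraries, miR-99a ranged from −0.14 to −0.045, miR-100 from −0.087 to −0.022, miR-99b from −0.26 to 0.21, miR-125a-5p from −0.078 to 0.30 and miR-125b-5p from −0.18 to 0.19. For genotype over all libraries by the labels, miR-99a ranged from 0.060 to 0.16, miR-99b from −0.11 to 0.085, miR-125a-5p from −0.35 to −0.13 and miR-125b-5p from −0.15 to 0.022. With the grouping of the tables the calls ranged from 0 to 8, miR-99a from −0.090 to 0.0054, miR-100 from −0.076 to −0.019, miR-125a-5p from 0.39 to 0.51 and miR-125b-5p from 0.24 to 0.33. The cause of these changes was not tested. No paired analysis was possible because the labels give no replicate numbers that pair libraries across groups.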

Other observations

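The 2 loci of miR-125b-5p carry the same mature sequence but not quite the same deposited percentage. The locus on chromosome 9 was above that on chromosome 16 in each of the 7 libraries, by 100 to 150 RPM, where the rounding step of the deposited values is 10 or 100 RPM. The share of miR-125a-5p among the reads of its family ranged from 5.27% in library 7 to 6.75% in library 5. The share of miR-100 in its family ranged from 21.7% to 24.3%. let-7e, from the hairpin between miR-99b and miR-125a, exceeded miR-99b by 2.31-fold in library 2 to 3.68-fold in library 4.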
